A study of Mus musculus with 2 samples.

Results

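Aminoacyl-tRNA synthetases join each amino acid to its tRNA, the step that supplies charged tRNAs to the ribosome. The set described here held 41 genes of the 18987 in the deposited count table. It was chosen by gene symbol, with earlier results of these data known. All 41 genes passed the filter on low values, averaging 1 CPM or more across the pair of libraries. CPM is the usual count scaled to library size. The set comprised 21 synthetase genes that act in the cytosol and 17 whose products act in mitochondria only. It also held 3 genes for scaffold proteins that hold part of the cytosolic enzymes together. The table gives mostly older symbols, such as Vars for Vars1, which are kept here.

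The study sequenced RNA of RAW264.7, an established mouse line of macrophage type that forms osteoclasts when given the cytokine RANKL, in 2 libraries. One library came from cells with an shRNA against Cpeb4, which encodes a cytoplasmic polyadenylation element-binding protein, and the other from cells with a control shRNA. Both cultures received 100 ng/ml RANKL 24 h after seeding at 7500 cells per cm2, and the series title places collection at day 3. The comparison asks how lowering Cpeb4 alters the transcriptome during osteoclast differentiation. The labels give no clone, culture or batch. With 1 library per group no test was possible, and each difference below is between these libraries, without a replicate check. In bulk RNA, a different share of cells of one type and a different amount of RNA per cell cannot be told apart.

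In most mammalian cells each amino acid has a nuclear gene for a cytosolic enzyme and another for a mitochondrial one. Glycine and lysine are exceptions, since Gars and Kars each encode both forms. Glutamine has no mitochondrial enzyme of its own and is made on its tRNA by an amidotransferase. In the cytosol, 8 synthetases (Eprs, Iars, Lars, Mars1, Qars, Rars, Kars and Dars) and the scaffold proteins of Aimp1, Aimp2 and Eef1e1 form the multisynthetase complex. Many cytosolic synthetase genes are known targets of ATF4, which drives transcription when amino acids run short and binds a composite site related to TGATGNAA.

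The total count was 119350322 in the Cpeb4 shRNA library and 79399680 in the control library. Cpeb4 had 13491 counts (104 CPM) in the Cpeb4 shRNA library and 25270 counts (345 CPM) in the control library. Its log2 ratio, Cpeb4 shRNA over control here and below, was -1.73, with a 95% counting interval of -1.76 to -1.70 that covers counting error only. Of 10 macrophage and osteoclast lineage markers all were listed, 9 passed the filter and 0 of these were above 0 (median log2 ratio -0.79). Adgre1, a macrophage marker below the filter, went the other way, with 101 counts in the Cpeb4 shRNA library and 12 in the control library. Of markers for other cell types, 3 of 6 for fibroblasts and osteoblasts, 1 of 4 for lymphoid cells and 0 of 4 for granulocytes and mast cells were listed, and 0 passed the filter. The 6 markers of cycling cells were all at least 2-fold higher in the Cpeb4 shRNA library (median log2 ratio 4.13), beside 14.6% of all genes past the filter. They summed to 1723 CPM there against 145 CPM in the control library. The lineage markers summed to 10775 CPM in the Cpeb4 shRNA library and 45206 CPM in the control library. Osteoclast genes of high level made up most of both sums. Of the 9 lineage markers past the filter, 4 were at least 2-fold lower and 0 higher, beside 11.8% and 14.6% of all genes. The log2 ratios of these 9 ranged from -3.49 to -0.13. The part of these differences in the synthetase results was not tested.

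The promoters that held the ATF4-type site are shown first, because the site was found in cytosolic genes and in no mitochondrial or scaffold promoter. Promoter sequences, from RefSeq for GRCm38.p6, were found for 31 of the 41 genes and span 250 bases before to 50 bases after each start. The letters TGATGNAA, or TTNCATCA on the other strand, were in the promoters of 5 of 14 cytosolic genes (35.7%), 0 of 14 mitochondrial genes and 0 of 3 scaffold genes. They were in 2.60% of 8791 genes past the filter that have a promoter in the table and in 4.51% of all 27025 genes of that table. The 5 genes encode the enzymes for alanine, isoleucine, threonine, tyrosine and glycine. Each window is written 5′ to 3′ on the gene's own strand, with the matched letters in capitals.
Aars: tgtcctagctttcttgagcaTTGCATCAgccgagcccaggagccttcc
Iars: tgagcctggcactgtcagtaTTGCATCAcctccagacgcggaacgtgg
Tars: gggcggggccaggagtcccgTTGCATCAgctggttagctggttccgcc
Yars: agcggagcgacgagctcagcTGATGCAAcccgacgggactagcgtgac
Gars: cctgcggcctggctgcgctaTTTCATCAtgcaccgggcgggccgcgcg

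The windows lie at chr8:111033710-111033757 (plus strand, Aars), chr13:49682117-49682164 (plus, Iars), chr15:11399646-11399693 (minus, Tars), chr4:129189886-129189933 (plus, Yars) and chr6:55037951-55037998 (plus, Gars). The match begins 112 bases before the annotated start in Aars, 30 before it in Gars and 15 before it in Tars. In Yars and Iars it begins 3 and 7 bases after the start. Aars held another match 9 bases after its start. A match is a description of these letters, not a binding site.

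The E-box CACGTG, the site of MYC and related factors, was in the promoters of 4 of the 14 cytosolic genes (Aars, Iars, Tars and Farsb) and of 1 of 14 mitochondrial genes (Ears2). That is 28.6% and 7.14%, against 12.2% of the 8791 genes past the filter. It overlapped no ATF4-type match. In Aars, Iars and Tars both kinds of letters stood in the same 300 bases.

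The ratios of the 41 genes lay close together. Of these genes, 1 was at least 2-fold higher in the Cpeb4 shRNA library, where 14.6% of the 12086 genes past the filter were, and 0 were at least 2-fold lower, where 11.8% of all genes were. Over all genes that was 1765 higher and 1421 lower, against 2487 and 1039 with total-count scaling and 1509 and 1674 with reference-gene scaling. At 1.5-fold, 6 were higher, among them Vars, Kars, Mars1, Aimp1 and Eef1e1, against a background of 26.4%. At the same size 2 were lower (Sars and Wars), against a background of 22.1%. These 1.5-fold calls depended on the scaling. With total-count scaling Sars and Wars were at -0.56 and -0.51, short of 1.5-fold, and further members such as Yars (0.80) were past it. With reference-gene scaling Mars1, Aimp1 and Eef1e1 fell short (0.51, 0.51 and 0.49), while Fars2 and Nars2 were past it (-0.60 and -0.62). All counts were at least 565, so the counting intervals were narrow, at most 0.30 log2 units wide.

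**Figure D1:**
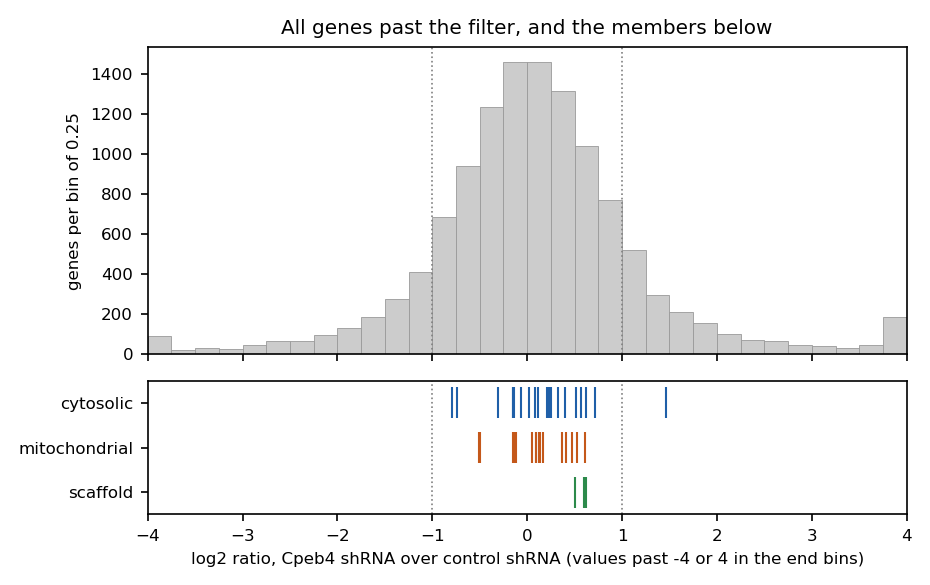
The upper panel counts all genes past the filter by log2 ratio (Cpeb4 shRNA over control shRNA) in bins of 0.25, with genes past -4 or 4 in the end bins, and the lower panel marks each member by group. Dotted lines mark 2-fold. All members but Vars lie between them.

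The median log2 ratio was 0.14 over the 41 genes, 0.21 over the cytosolic genes, 0.10 over the mitochondrial genes and 0.60 over the scaffold genes, beside 0.05 over all genes past the filter. The mitochondrial median was -0.012 under scaling to 20 reference genes. These reference genes were not constant themselves, with log2 ratios from -1.96 to 1.93, 3 at least 2-fold higher and 1 lower. They include Eef1a1, which is described below. Total-count scaling adds 0.23 to every ratio and reference-gene scaling subtracts 0.11, so the sign of a small ratio depends on the scaling. Over the scalings, pseudocounts and thinning tried, 23 members stayed above 0, 5 stayed below 0 (Nars, Wars, Sars, Fars2 and Nars2) and 13 were on either side. Together the members took 0.567% of the unscaled total count in the Cpeb4 shRNA library and 0.444% in the control library. On the TMM scale used for the other ratios, their summed counts had a log2 ratio of 0.12. The summed counts of the cytosolic genes had a log2 ratio of 0.12, and 0.03 without Vars.

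**Figure D2:**
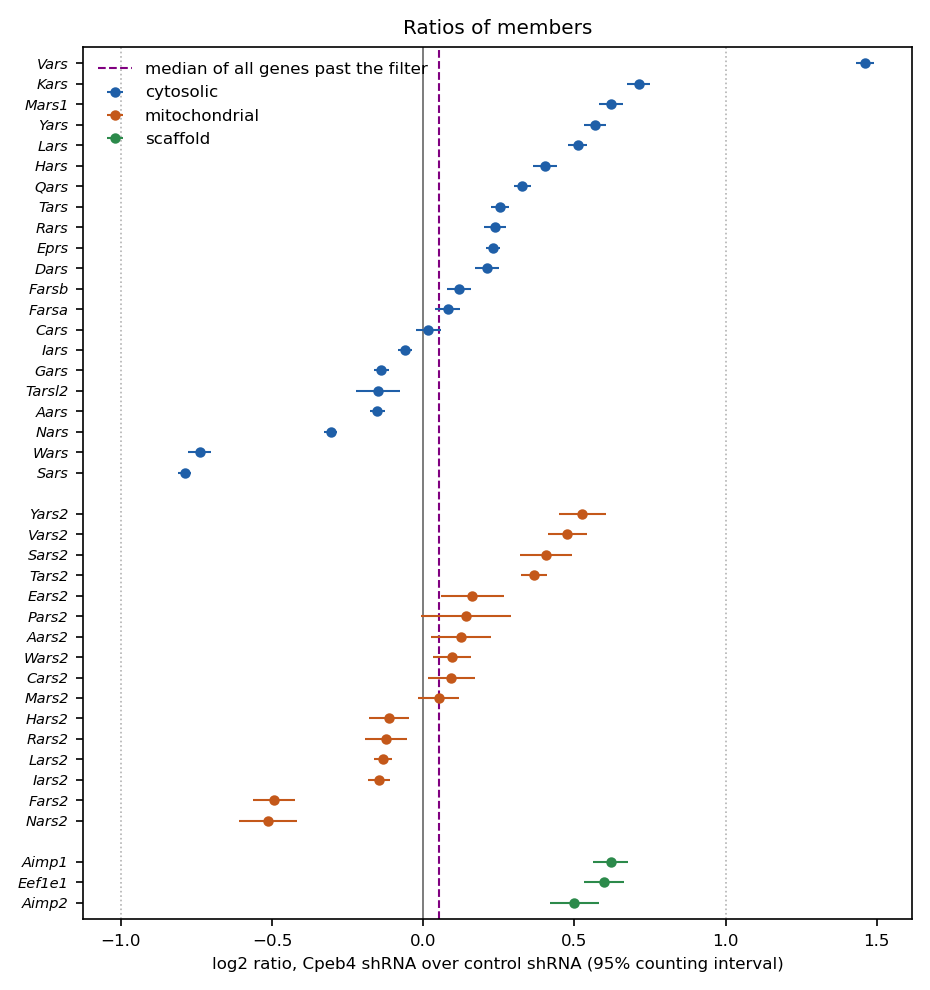
Log2 ratios of members (Cpeb4 shRNA over control shRNA) by group, with bars for the 95% counting interval. The dashed line is the median of all genes past the filter (0.05) and dotted lines mark 2-fold. Vars stands apart at 1.46, and Sars and Wars are lowest at -0.79 and -0.74.

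Among cytosolic synthetases the gene farthest from the others was Vars (ENSMUSG00000007029; mm10 chromosome 17, 35000987 to 35016322, plus strand), which encodes the enzyme for valine. Vars had 53711 counts (415 CPM) in the Cpeb4 shRNA library and 11035 counts (151 CPM) in the control library. That is a 2.76-fold higher level, a log2 ratio of 1.46 (1.43 to 1.49), and 8.17% of genes past the filter had a higher one. In mammals this enzyme binds the elongation factor complex that delivers charged tRNA to the ribosome. The genes of that complex were also above 0, with Eef1g at 1.29, Eef1a1 at 0.87, Eef1b2 at 0.66 and Eef1d at 0.63. They were above 0 under each scaling, since the largest shift downward was 0.11. Being above 0 was not particular to this complex. Eef2 and Eif5a, outside it, were at 0.71 and 0.53, and 6345 of the 12086 genes past the filter were above 0.

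Kars (ENSMUSG00000031948; chromosome 8, 111993443 to 112011323, minus strand), for the lysine enzyme of cytosol and mitochondria, had 161 CPM in the Cpeb4 shRNA library and 98.4 CPM in the control library (log2 ratio 0.71). Mars1, for the methionine enzyme that also charges the initiator tRNA, had 19700 counts in the Cpeb4 shRNA library and 7251 counts in the control library (0.62). Yars, for tyrosine, had 168 CPM in the Cpeb4 shRNA library and 113 CPM in the control library (0.57). Each of them had a higher level with Cpeb4 shRNA by less than 2-fold. Lars, whose product is also described as a leucine sensor for mTORC1 in human cells, had 225 CPM in the Cpeb4 shRNA library and 158 CPM in the control library (0.51). Hars, for histidine, was at 0.40, its exons overlapping those of Hars2 over 7.97% of their bases, and Qars, for glutamine, at 0.33.

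At the other end stood Sars and Wars. Sars (ENSMUSG00000068739; chromosome 3, 108424865 to 108445209, minus strand), for the serine enzyme, had 32682 counts (253 CPM) in the Cpeb4 shRNA library and 31972 counts (437 CPM) in the control library. Its log2 ratio was -0.79 (-0.81 to -0.77), a 1.73-fold lower level, and it stayed between -0.90 and -0.56 over the scalings, pseudocounts and thinning. Wars (ENSMUSG00000021266; chromosome 12, 108860030 to 108894174, minus strand) encodes the tryptophan enzyme, which interferon gamma is known to induce. It had 11960 counts (92.4 CPM) in the Cpeb4 shRNA library and 11302 counts (154 CPM) in the control library, a log2 ratio of -0.74 (-0.78 to -0.70). Nars, for asparagine, followed with 346 CPM in the Cpeb4 shRNA library and 428 CPM in the control library (-0.31).

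The other cytosolic genes lay between -0.15 and 0.25. Tars, for threonine, was at 0.25, Rars, for arginine, at 0.24 and Dars, for aspartate, at 0.21. Eprs, whose product joins the glutamate and proline enzymes in one chain, was at 0.23, from 362 CPM in the Cpeb4 shRNA library and 308 CPM in the control library. Farsa and Farsb encode the alpha and beta subunits of the phenylalanine enzyme, which work as a pair, and had close ratios of 0.08 and 0.12. Per length the subunits were also close, at 60.1 and 58.2 CPM per kb in the Cpeb4 shRNA library and 56.8 and 53.6 CPM per kb in the control library. Cars, for cysteine, was at 0.02, with an interval that held 0. Iars (isoleucine, -0.06), Gars (glycine, -0.14), Aars (alanine, -0.15) and Tarsl2, a threonine enzyme gene of lower level (-0.15), were just below 0 and above 0 under total-count scaling. For Aars, 14.3% of exon bases overlap Exosc6 on the same strand, which had 1 count in each library. How reads from the shared bases were assigned is not known. The low count of Exosc6 therefore does not show that the Aars values are free of its reads.

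These differences reordered the levels of the cytosolic genes. Levels between genes are given as CPM per kb of 1 annotated transcript. In both libraries Nars was highest, at 126 CPM per kb in the Cpeb4 shRNA library and 156 CPM per kb in the control library. Vars ranked 3 of the 41 genes in the Cpeb4 shRNA library (100.3 CPM per kb) and 20 in the control library (36.4 CPM per kb). Kars ranked 5 in the Cpeb4 shRNA library and 15 in the control library. The serine and tryptophan genes moved the other way in the order. Wars ranked 18 in the Cpeb4 shRNA library (50.7 CPM per kb) and 4 in the control library (84.6 CPM per kb), and Sars ranked 7 in the Cpeb4 shRNA library and 2 in the control library. Cytosolic genes had a median level of 60.1 CPM per kb in the Cpeb4 shRNA library and 50.6 CPM per kb in the control library. Tarsl2 was the lowest of them, at 9.48 CPM per kb in the Cpeb4 shRNA library and 10.5 CPM per kb in the control library.

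**Figure D3:**
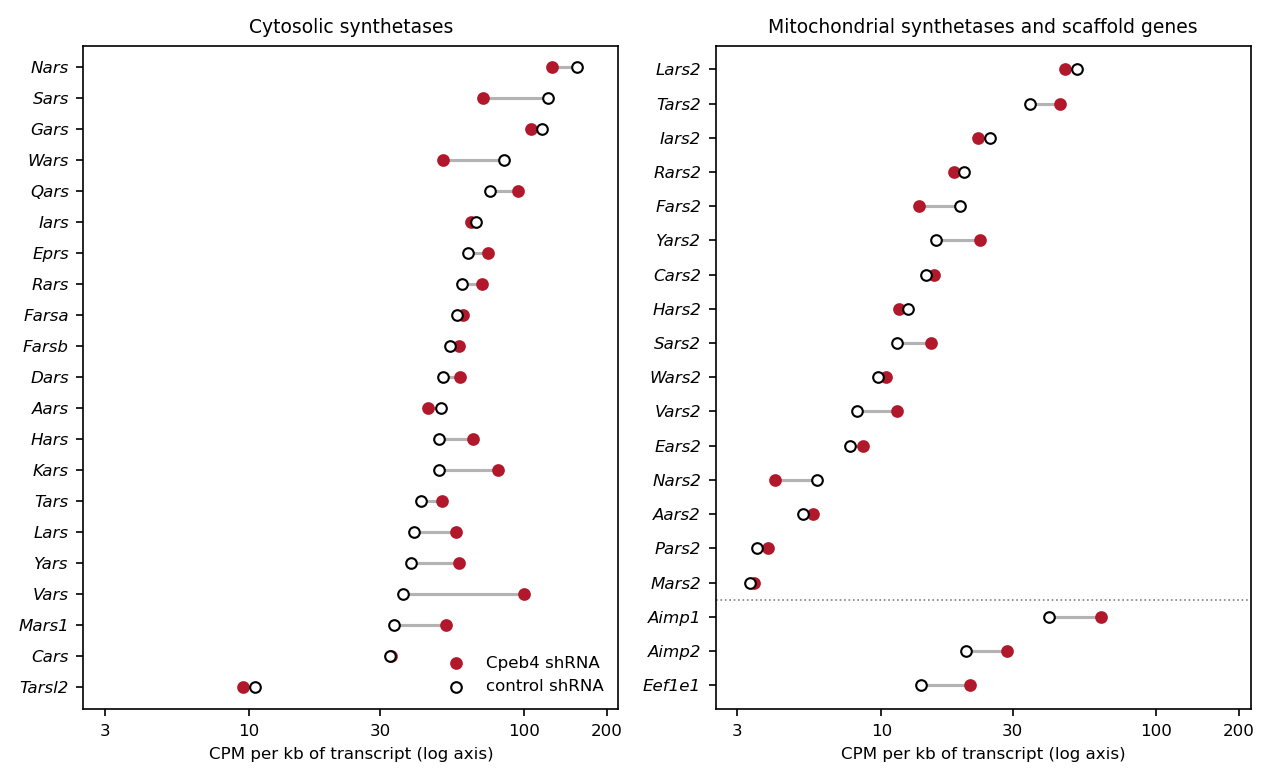
Levels of members in CPM per kb of transcript (log axis), with filled points for the Cpeb4 shRNA library, open points for the control library and a grey line between them. Genes run down by their level in the control library within each group. Vars lies right of its control point, at 100.3, while Sars and Wars lie left of their control points.

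The scaffold genes had ratios close to each other. Aimp1, which encodes the scaffold protein that is also the precursor of a secreted cytokine, had 9139 counts (70.6 CPM) in the Cpeb4 shRNA library and 3367 counts (46.0 CPM) in the control library, a log2 ratio of 0.62 (0.56 to 0.68). Eef1e1, whose product is also called AIMP3, had 53.9 CPM in the Cpeb4 shRNA library and 35.6 CPM in the control library (0.60, interval 0.53 to 0.66). Aimp2, which encodes the core scaffold protein, had 34.0 CPM in the Cpeb4 shRNA library and 24.0 CPM in the control library (0.50, interval 0.42 to 0.58). The 3 intervals overlapped, and each ratio stayed above 0 over the scalings, pseudocounts and thinning. For Aimp2, 29.4% of exon bases overlap Eif2ak1 on the opposite strand. Eif2ak1 was at 0.02, and no source used here says whether counting used strand.

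With the scaffold genes, 10 of the 11 genes of the multisynthetase complex were above the median of all genes, Iars being the exception, and their median was 0.50. The 8 synthetases of the complex alone had a median of 0.28. Of the 13 cytosolic synthetases outside the complex, 6 were above the median of all genes and 7 below, and their own median was 0.02. Outside the complex the spread was wider, with Vars at one end and Sars and Wars at the other. Synthetases also fall into 2 classes by the fold of their catalytic domain. The 9 cytosolic class I genes had a median of 0.33 and the 11 class II genes 0.08, Eprs holding both folds. In mitochondria the class medians were 0.09 for class I and 0.13 for class II.

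Mitochondrial synthetases charge the tRNAs encoded by mitochondrial DNA. Of these 17 genes 11 were above 0 and 6 below, 7 of the 17 being on either side over the settings tried. Of them 0 reached 2-fold in either direction and 10 were above the median of all genes. Yars2, for tyrosine, had 4637 counts (35.8 CPM) in the Cpeb4 shRNA library and 1822 counts (24.9 CPM) in the control library, a log2 ratio of 0.53. It was near the high end of the mitochondrial group, and Vars2 (valine, 0.48), Sars2 (serine, 0.41) and Tars2 (threonine, 0.37) came next.

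At the low end Nars2, for asparagine, had 2001 counts (15.5 CPM) in the Cpeb4 shRNA library and 1616 counts (22.1 CPM) in the control library, a log2 ratio of -0.51 (-0.61 to -0.42). Fars2, whose product is a single-chain phenylalanine enzyme, had 29.1 CPM in the Cpeb4 shRNA library and 41.0 CPM in the control library (-0.49). Nars2 and Fars2 stood apart from the other mitochondrial genes below 0. Iars2 (isoleucine, -0.15), Lars2 (leucine, -0.13), Rars2 (arginine, -0.12) and Hars2 (histidine, -0.11) were above 0 under total-count scaling. For Iars2, 22.9% of exon bases overlap Rab3gap2, which was at 0.22. Between these, Ears2 (glutamate) was at 0.16, Pars2 (proline) at 0.14, Aars2 (alanine) at 0.13, Wars2 (tryptophan) at 0.10, Cars2 (cysteine) at 0.09 and Mars2 (methionine) at 0.05. The intervals of Pars2 and Mars2 held 0, and Pars2 had the fewest counts of all members, with 1100 in the Cpeb4 shRNA library and 565 in the control library.

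Per length, mitochondrial synthetase genes had lower levels than cytosolic ones, with a median of 13.7 CPM per kb in the Cpeb4 shRNA library and 11.9 CPM per kb in the control library. Lars2 was the highest of them in both libraries, at 46.7 CPM per kb in the Cpeb4 shRNA library and 51.3 CPM per kb in the control library. Mars2 was lowest, at 3.46 CPM per kb in the Cpeb4 shRNA library and 3.34 CPM per kb in the control library, with the longest annotated transcript of the set (11294 bases).

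Setting the cytosolic and mitochondrial genes for one amino acid side by side removes the scaling, since it shifts both alike. Over 17 amino acids there were 19 such pairs, as phenylalanine and threonine each have 2 cytosolic genes. The cytosolic gene had the higher ratio in 9 pairs by more than counting error, the mitochondrial gene in 6, and in 4 pairs the interval of the difference held 0. The largest cytosolic excess was for valine, with a difference of 0.99 (interval 0.91 to 1.06) between Vars and Vars2. Leucine (Lars and Lars2, 0.65), methionine (Mars1 and Mars2, 0.57) and histidine (Hars and Hars2, 0.52) followed the same direction, as did Farsb against Fars2 (0.61).

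For serine the order was the opposite. Sars was at -0.79 and Sars2 at 0.41, a difference of -1.20 (-1.28 to -1.11), so the RNAs of the 2 genes for one amino acid differed in direction. Tryptophan came next, with Wars at -0.74 and Wars2 at 0.10, a difference of -0.84 (-0.91 to -0.76). For asparagine both genes were below 0, and for tyrosine both were above 0 and differed by 0.04 (-0.04 to 0.13). The median difference over the pairs was 0.09.

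**Figure D4:**
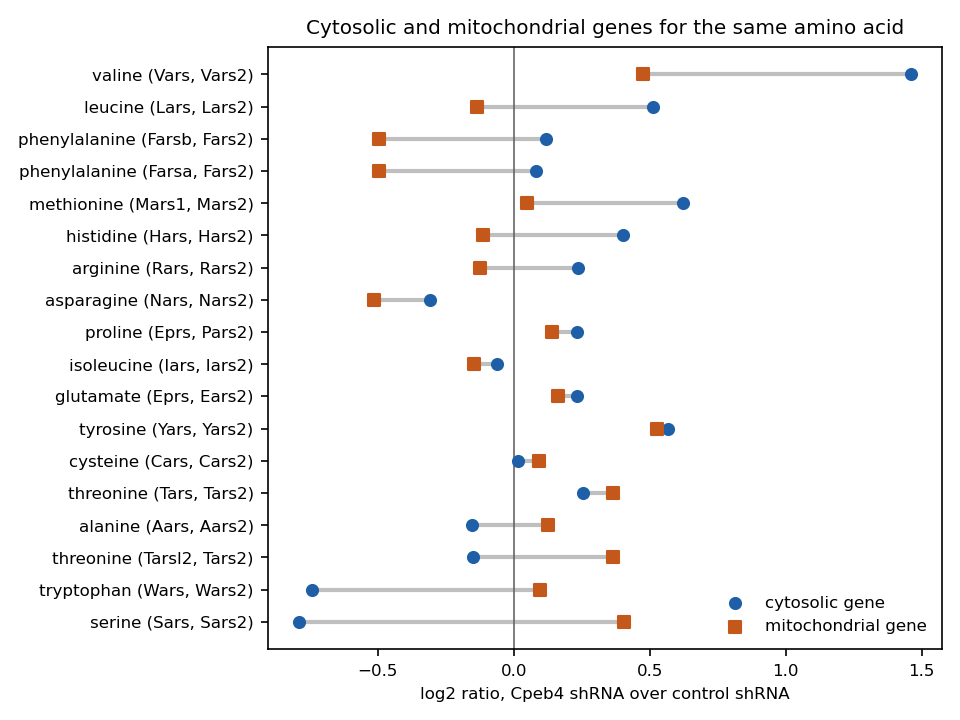
Log2 ratios (Cpeb4 shRNA over control shRNA) of cytosolic genes (circles) and mitochondrial genes (squares) for the same amino acid, ordered by their difference. Valine is at one end with a difference of 0.99, and serine at the other with -1.20.

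Of the cytosolic genes, 13 were listed from background knowledge as ATF4 targets and 8 were not, with earlier results of these data known. The listed genes had a median log2 ratio of 0.02, with 6 above and 7 below the median of all genes, and ranged from -0.79 (Sars) to 1.46 (Vars). Of the genes not listed, 7 of 8 were above the median of all genes, and their median was 0.22. Of the listed genes 8 had a promoter sequence, and the 5 with the ATF4-type letters shown above were all among them. Those 5 ranged from -0.15 for Aars to 0.57 for Yars with a median of -0.06. The other listed genes, Vars (1.46), Lars (0.51), Cars (0.02), Nars (-0.31) and Wars (-0.74), had no promoter sequence and were not searched. The 9 cytosolic promoters without the letters had a median of 0.21. Sars, the lowest gene, was among these 9, so these letters are not in that window.

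The list of genes that sense uncharged tRNA and carry the amino acid response had a lower median than the synthetase groups, -0.92, while several of its genes lay within the synthetases' range. Of 11 past the filter 5 were at least 2-fold lower and 0 higher, beside 11.8% and 14.6% of all genes. Atf4 itself had 238 CPM in the Cpeb4 shRNA library and 316 CPM in the control library (-0.41). Eif2ak4, which encodes GCN2, the kinase that binds uncharged tRNA, was at -0.19, and Gcn1, for its activator, at 0.38. Asns, for asparagine synthetase, was at 0.12 (0.09 to 0.16). The stress genes Ddit3 and Trib3 were lowest, at -3.57 and -2.11. Ddit3 shares 68 exon bases with Mars1 on the opposite strand, and the 2 genes lay on opposite sides of 0.

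Lists of genes for the making of tRNA had medians above that of all genes, with shares past 2-fold that were not above the background. Among genes of tRNA maturation and export, 25 passed the filter with a median of 0.40, of which 3 reached 2-fold higher and 0 lower, beside 14.6% and 11.8% of all genes. Pop1, for a subunit of the RNases P and MRP, had 19.6 CPM in the Cpeb4 shRNA library and 5.27 CPM in the control library (1.90), and Rpp25l was at 1.12. Trmt10c (-0.34), for a subunit of mitochondrial RNase P, and Pop4 (-0.29) were lowest. Trnt1, which adds the CCA end to which amino acids are joined, was at 0.22 and the tRNA exporter gene Xpot at 0.03.

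Of 23 genes of RNA polymerase III and its factors, 2 were at least 2-fold higher (Gtf3c5 at 1.20 and Polr1c at 1.11) and 0 were lower, beside the same background, and the median was 0.30. Polr3k (-0.40) and Crcp (-0.33) were lowest. Cytosolic elongation factors, the proteins that use charged tRNA, had a median of 0.68, with all 6 above 0 and Eef1g at least 2-fold higher. Over all genes past the filter, 6345 of 12086 were above 0 and 14.6% were at least 2-fold higher. Eef2 was at 0.71 and Eif5a at 0.53.

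The helpers of mitochondrial tRNA charging and translation had a median of 0.04, near that of the mitochondrial synthetases. Mtfmt, which formylates the initiator methionine, was at 0.71 and Gatc, a subunit of the amidotransferase for glutamine, at 0.54. Its partner subunit genes Qrsl1 and Gatb were at 0.17 and -0.31, and the elongation factor gene Gfm1 at -0.52, with Gfm2 at -0.31. Among 7 genes for trans-editing of misacylated tRNA and for peptidyl-tRNA hydrolysis, Aarsd1, for an enzyme that clears wrongly charged alanine tRNA, had 47.7 CPM in the Cpeb4 shRNA library and 15.3 CPM in the control library (1.64). The median of the list was -0.08, with 3 of the 7 genes above 0. Of the 7, 1 was at least 2-fold higher and 1 lower, beside 14.6% and 11.8% of all genes.

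**Figure D5:**
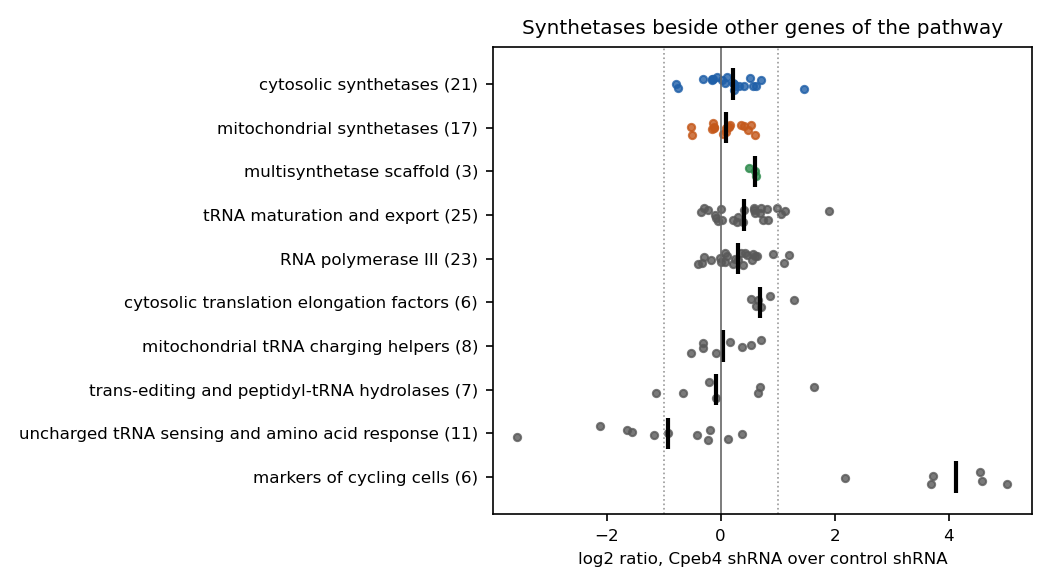
Log2 ratios (Cpeb4 shRNA over control shRNA) of synthetases by group, of other genes of the pathway and of cycling-cell markers, each point 1 gene past the filter, with vertical bars for medians and the number of genes in brackets. Synthetase medians are 0.10 (mitochondrial, -0.012 under reference-gene scaling) and 0.21 (cytosolic), and the scaffold median is 0.60. The amino acid response list is at -0.92 and the cycling markers at 4.13.

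CPEB proteins bind cytoplasmic polyadenylation elements in the 3′ untranslated region of mRNAs, and the letters searched were TTTTAT and TTTTAAT on the mRNA strand. In the last 200 bases of the annotated 3′ end, 6 of 28 members with a 3′ region of that length held one (21.4%), against 30.3% of 9220 genes past the filter. They were 5 of 15 cytosolic genes, 1 of 12 mitochondrial genes and 0 of 1 scaffold gene. The sites of 5 of these genes are printed with 30 bases each, from GENCODE M21 transcripts, as the elements a CPEB protein could read, with the matched letters in capitals.
Sars: taacagcatgaaTTTTATggttgggggcca
Aars: acataaaaactaTTTTATgactggaaatac
Tarsl2: aagagttacagTTTTAATgcttctaatcat
Farsa: caggccagctgTTTTAATaaagtgggcaca
Mars2: ctggtaagtattTTTTATatatgctataga

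These genes had log2 ratios of -0.79, -0.15, -0.15, 0.08 and 0.05 in the order printed, and the remaining one, Lars, was at 0.51. The match in Farsa runs into the polyadenylation signal AATAAA. Genes with the letters thus lay on both sides of 0, and Wars, near the low end of the range, held none. Vars was not among the 28. A match is a description of letters and does not show binding.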

How the data were processed

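RNA was sequenced from 2 libraries, 1 per group. The deposited table holds whole-number counts per gene and lists only genes with at least 1 count in both libraries. HISAT2 and the mm10 build are named per the submitters' processing notes. No source used here gives the counting tool, its use of strand or the annotation. Genes at 4 counts outnumber those at 3 or 5 (364 against 282 and 205 in the Cpeb4 shRNA library, 585 against 444 and 286 in the control library), so the values may be estimates.

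Counts were scaled with TMM in edgeR 4.0.16 (R 4.3.3; factors 1.08 for the Cpeb4 shRNA library and 0.922 for the control library). The filter was a mean CPM of 1 or more (12086 genes). Intervals are 95% Clopper-Pearson intervals of the share of a gene's counts, and those of pair differences are normal approximations. They cover counting error only and leave out variation between cultures. PCR copies are not independent molecules, so the intervals may be too narrow even for counting error. Higher and lower mean at least 2-fold, or the stated fold. A count of 3 is 0.023 CPM in the Cpeb4 shRNA library and 0.041 CPM in the control library. The computation was tested on simulated data.

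Coordinates, exon overlaps and transcripts came from GENCODE M21 (GRCm38, the assembly of mm10), where 18954 of 18987 identifiers were found. Motifs were searched as spelled. Exons of 17 members overlap another gene's. Of near copies (at least 90% identity over 200 bases), Gm4849 (Iars) had 19 counts in the Cpeb4 shRNA library and 21 in the control library, Gatad2b (Tars, 90.0% over 200 bases) had 15021 counts in the Cpeb4 shRNA library and 5873 in the control library, and no count of Gm12438 (Aimp1) was used here. How reads were divided between copies is not known, so Tars, Iars and Aimp1 are uncertain to that extent. Members and lists were chosen with earlier results of these data known. Every member could be named, except that 1 member and 1 gene of another list are not reported here or labelled in the plots, and of other lists the 2 highest and 2 lowest genes, or all of a list of 6 or fewer. Other genes named (Atf4, Eif2ak4, Trnt1, Xpot, Gatb, Qrsl1 and Mtor) were chosen for their roles after their values were seen. Alternatives included DESeq2 1.42.0 size factors.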

Additional observations from a re-analysis of the deposited data

How the results depend on the processing

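No paired analysis was possible because a single library on each side leaves no replicate numbers to pair. Median log2 ratios of the cytosolic, mitochondrial and scaffold genes were 0.44, 0.33 and 0.83 with total-count scaling, and 0.10, -0.012 and 0.49 with reference-gene scaling. With thinning of the deeper library they were 0.18, 0.057 and 0.56. The cytosolic and mitochondrial medians were 0.20 and 0.081 with DESeq2 size factors and 0.17 and 0.060 with upper-quartile scaling. Over members without an exon overlap, chosen after seeing the data, they were 0.22 and 0.13. Each scaling shifts all ratios by a constant. Cpeb4 was at -1.49 with total-count, -1.76 with upper-quartile and -1.83 with reference-gene scaling. The counts of members at least 2-fold higher (1) and lower (0) were the same under each scaling, pseudocount, thinning and filter. At 1.5-fold they were 6 and 2, and at 4-fold 0 and 0. Of single members' ratios, 41 moved beyond the counting interval with total-count scaling, 40 with reference-gene scaling, 15 with thinning and 13 with upper-quartile scaling, none of them a called ratio that changed sign. Depth limits little here, but no replicate bounds the variation between cultures.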

Other observations

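Genes that pass amino acid supply to mTORC1 were not described above. Of 20 past the filter 1 was at least 2-fold higher and 2 were lower, beside 14.6% and 11.8% of all genes, with a median log2 ratio of -0.19, smaller in size than the 0.23 that total-count scaling adds. Rragb, for a Rag GTPase, had 817 counts in the Cpeb4 shRNA library and 59 counts in the control library (2.97). Depdc5, for a subunit of the GATOR1 complex, was at 0.53. Castor2 (-1.40) and Castor1 (-1.01), which encodes an arginine sensor, were lowest. Lars, the synthetase described as a leucine sensor in human cells, was at 0.51, and Mtor at 0.09.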
